A study of Sardinops sagax and Scomber japonicus with 20 samples.

Results

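The sardine liver comparison covered every entry of 1 deposited result table, 6716 rows of the 15907 that the series holds for its 2 fish species. Each row is 1 zebrafish transcript record to which sardine reads were assigned, printed here by its human gene symbol, and the 6716 rows carried 5423 symbols. The fish were adult male Pacific sardines (Sardinops sagax) from a live bait receiver, kept at 17 °C in flow-through seawater on pelleted feed. In the first group 5 males were exposed for 5 h to 12.5 pM 17α-ethynylestradiol (EE2), and in the other 5 males stayed unexposed. RNA with an integrity number above 7 was taken from the liver of each fish, and TruSeq libraries of about 300 bp were made with 10 PCR cycles. The comparison addresses which liver transcripts differ after a short exposure to this estrogen. The table does not record which group its fold change has on top, so differences are given as a positive side and a negative side, and neither side can be named as exposed or control.

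EE2 is the synthetic estrogen of contraceptive pills. In egg-laying fish the liver is a main target of estrogen: hormone-bound estrogen receptor in hepatocytes switches on vitellogenin and egg envelope genes, in males as well as females. The same cells make most blood proteins, among them fibrinogen, complement and protease inhibitors, and they hold the enzymes of sterol, bile acid and amino acid metabolism. Liver tissue also contains blood vessels, blood cells and bile ducts, and in many bony fish pancreatic tissue runs into the liver. In such bulk samples fewer cells of a type and less RNA per cell cannot be told apart.

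The 2 sides of the table did not rest on the same number of independent values. In all 5738 rows with a mean normalized count of at most 10, the mean was a sum of whole numbers times 6 fixed steps. Of these 6 series of whole numbers, called recovered reads, 5 belonged to the positive side and 1 to the negative side. The fold changes equalled the ratio of the side levels when the negative-side number was counted in 5.03 columns, so the authors' fit appears to have held that number 5 times. The authors' standard error (SE) and adjusted p count it as 5 fish. In 2311 of the 2440 solved rows with reads on both sides the SE was below the counting error of the ratio of the sides with that number taken once. With the number taken 5 times the SE was below it in 167 rows. Every difference below therefore sets 5 libraries against 1 number, and a difference between the groups cannot be told apart from a difference of that number's source. Libraries are numbered 1 to 5 only to tell them apart. Among the positive-side libraries library 5 stood apart: its Pearson correlation with the others across 1365 curated rows was 0.28 to 0.38, against 0.42 to 0.64 among the other 4 libraries. That is a description across genes, which are not independent replicates. Recovered reads per library on the solved rows were 14349, 15564, 10151, 8666 and 9078 on the positive side against 11913 on the negative side.

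Curated and predicted transcript records gave different pictures of the same livers. Among curated records (NM, 4517 rows) the balance of calls depended on rows at 0: among 4463 with an adjusted p in the authors' deposited table, 881 were called positive (19.7%) and 973 negative (21.8%), 41.5% together, at an adjusted p under 0.05 by DESeq2. Predicted records (XM messenger and XR noncoding, 2199 rows) leaned to one side, with 56.9% called: 1129 of 2137 were positive (52.8%) and 88 negative (4.12%). Over all records 46.5% were called, 30.5% on the positive side against 16.1% on the negative side. The noncoding XR records alone had 65 rows called positive and 2 negative, and the XM records 1064 and 86. Curated rows with reads on both sides had 405 positive and 729 negative calls. Curated rows with an SE of at most 1 had 399 and 557. Asking for reads on both sides dropped 476 positive calls at 0 on the negative side. It dropped 244 negative calls at 0 on the positive side, so the filter itself moved the balance. Without the striated muscle list curated records had 881 positive and 930 negative calls.

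The lean of the predicted records came with zeros on the negative side. Of the predicted rows 82.8% had 0 reads there (XM 82.3%, XR 93.0%), against 19.7% of the curated rows. Predicted records held 27.1% of the summed level on the positive side against 1.72% on the negative side. The 5 positive-side libraries were alike in this: predicted records took 43.0%, 42.7%, 43.3%, 43.5% and 49.2% of their recovered reads, against 7.54% on the negative side. In predicted rows with reads on both sides 14 were called positive and 44 negative. The median log2 fold change was -1.84, against -1.16 in such curated rows. Asking for a negative-side read dropped 1115 positive predicted calls, and asking for a positive-side read dropped 44 negative ones. The filter thus largely fixed this lean beforehand. A predicted row with 0.259 on the positive side against 0.885 on the negative side already gave -1.84. With rows at 0 set to their bound against a floor of 3 reads, the median of all predicted rows moved to 0, where the authors' deposited table gives 4.95. Intervals and floors here cover counting error only, since reads copied by PCR without molecular identifiers are not independent molecules.

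**Figure D1:**
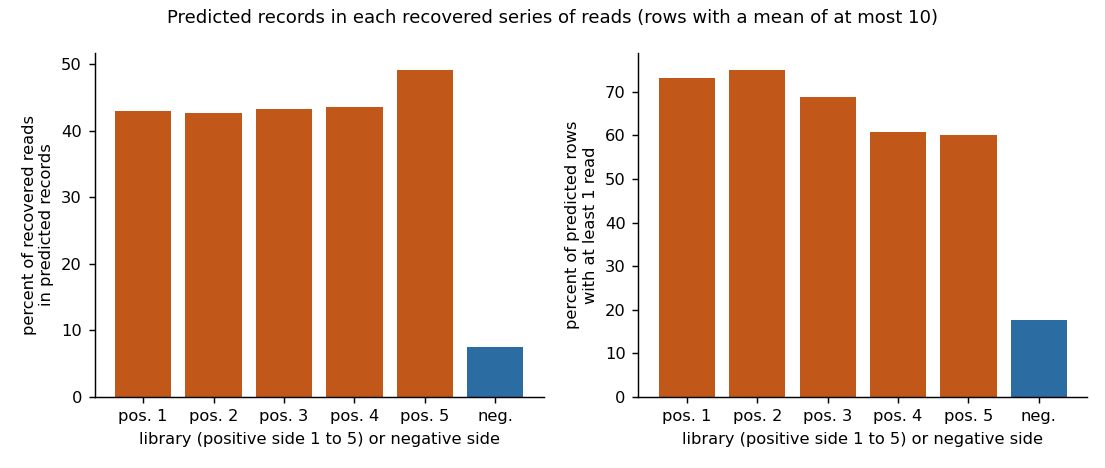
Share of recovered reads in predicted records (left, percent) and share of predicted rows with at least 1 read (right, percent), each for the 5 positive-side libraries (orange) and the negative side (blue), in rows with a mean of at most 10. All 5 positive-side libraries stand between 42.7% and 49.2% in the left panel, and the negative side stands at 7.54%.

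Set against the 52.8% called positive and 82.8% at 0 over all predicted rows, most lists had many zeros. Predicted rows of complement had 13 of 14 called positive with all 14 at 0 on the negative side, and translation factors 11 of 11 tested, 12 of 12 at 0. Cytoskeletal genes outside muscle had 13 of 18 predicted rows positive and 1 negative, with 17 at 0. Lower shares stood in striated muscle, with 3 of 9 positive, 3 negative and 5 at 0, and in antigen presentation, with 8 of 19 tested positive and 15 of 20 at 0.

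Genes with both kinds of record showed the same split within a single symbol. There were 37 symbols with a curated and a predicted row of mean at least 10, which together had 60 curated and 48 predicted rows. Of the predicted rows 41 were at 0 on the negative side, and of the curated rows 6. Curated rows had 30 positive and 22 negative calls, with a median log2 fold change of 0.59. Predicted rows had 43 and 3, with a median of 9.68. Without any negative-side read, a row's fold change grows with its abundance and does not measure the size of a difference. Over all XM records the median was 4.23 for means up to 1 and 9.08 between 10 and 100. Keeping only abundant rows therefore largely fixed the 9.68 and the 43 calls beforehand. For the mitochondrial ATP synthase subunit ATP5B the predicted row had a level of 80.9 normalized counts on the positive side against 0 on the negative side, while the curated row had 206 on the positive side against 400 on the negative side. The elongation factor EEF1A1 had 3 curated rows of that abundance, all called negative in the authors' deposited table at -0.64, -1.46 and -0.71, and a predicted row at 75.1 against 0. A less abundant curated EEF1A1 row stood on the positive side, with 12, 9, 4, 7 and 0 reads in libraries 1 to 5 and 0 on the negative side. The mitochondrial ADP/ATP carrier SLC25A5 likewise had 2 curated rows at 45.1 and 556 on the positive side, against 106 and 1253 on the negative side. Its predicted row stood at 21.2 on the positive side against 0 on the negative side. ITIH3, a plasma inter-alpha-trypsin inhibitor chain, was an exception: its predicted row had 800 on the positive side against 189 on the negative side, and in the authors' deposited table its fold change of 2.08 lay among the 1.92 to 2.27 of its 3 curated rows. Rows of 1 symbol can share reads of near-identical copies, so the split of reads among them is uncertain.

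**Figure D2:**
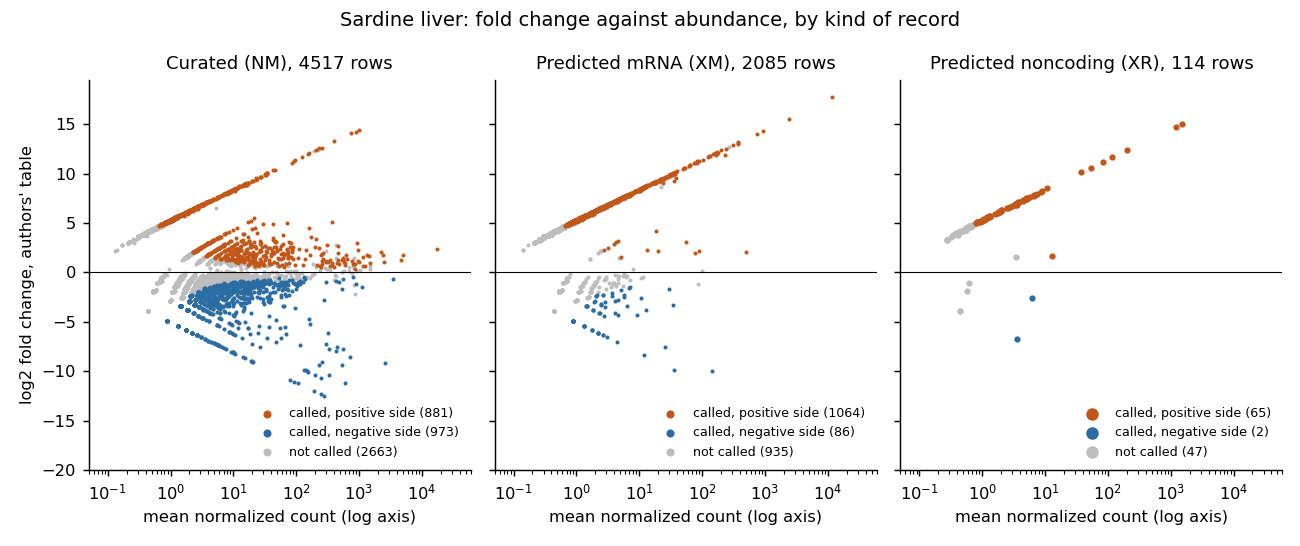
Log2 fold change of the authors' deposited table (vertical) against mean normalized count (horizontal, log axis) for curated NM, predicted XM and predicted XR records. Orange points were called on the positive side, blue points on the negative side and grey points were not called; the rising band holds rows at 0 on the negative side, which include 82.3% of XM and 19.7% of curated rows.

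Abundance and precision limited which fold changes could be read. The median SE of curated rows with reads on both sides was 1.64 on the log2 scale at a mean of at most 1, 0.78 between 2 and 5, 0.42 between 10 and 100 and 0.22 above 1000. At a mean of at least 10 the curated calls stood at 323 positive and 280 negative, and the median log2 fold change was -0.21. The 10 most abundant rows held 33.1% of all mean counts. They included fibrinogen FGG and FGB, plasminogen PLG, prothrombin F2, the elongation factor EEF1A1, ribosomal RPL23 and the tropomyosin TPM3. Fibrinogen rows took 17.1% of the positive-side level and 6.99% of the negative-side level. The predicted row of SYNPO2L, a muscle Z-disc gene, took 11% of the positive-side level with no read on the negative side.

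The 12 largest positive differences among curated rows with a mean of at least 10 and an SE of at most 0.5 lay in genes of several roles. The lipid hydroperoxide reductase GPX4 had a level of 734 normalized counts on the positive side against 21.6 on the negative side; the authors' deposited table gives 5.09 ± 0.43 on the log2 scale (SE), with a DESeq2 adjusted p of 3.52e-29. Complement C3 followed with 141 against 4.50 and the carboxypeptidase CPB2, which slows clot breakdown, with 84.6 against 9.77. The acute phase protein SAA2 had 1617 on the positive side against 210.5 on the negative side (2.94 ± 0.25 in the authors' deposited table), and the elastase inhibitor SERPINA1 had 539 against 78.2. Lanosterol synthase LSS stood at 83.0 against 9.78 and DHCR7, which makes cholesterol in the last step of its pathway, at 150 against 18.7. The others were the RNA-binding SERBP1, the mitochondrial decarboxylase FAHD1, the glycerate kinase GLYCTK, prohibitin PHB and SERP1, which steadies the translocon of the endoplasmic reticulum, with log2 fold changes of 2.85 to 3.36 in the authors' deposited table. SERP1 rested on 3 negative-side reads, so its ratio of 7.19 has a counting interval from 2.41 to 35.9. C3 rested on an estimated 5 negative-side reads and FAHD1 and PHB on 4 each. The small SE of these rows counts the negative-side number as 5 fish, so it does not make their ratios precise.

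The largest negative differences outside the muscle list under the same limits of mean and SE joined cytoskeletal genes with genes of other roles. The tropomyosin TPM4 had 3.78 on the positive side against 587 on the negative side, the largest at -7.28 ± 0.42 in the authors' deposited table. The mitochondrial isocitrate dehydrogenase IDH2 had 8.93 against 640 (-6.16 ± 0.31 in the authors' deposited table), and the poly(A)-binding PABPC4 had 8.73 against 323. The actin ACTG1 stood at 11.6 against 303, the regulatory light chain MYL9 at 3.12 against 27.5 and the actin regulator PHACTR4 at 5.94 against 56.1. A globin row under the human symbol HBZ had 3.28 against 93.7 and CD83, a marker of activated dendritic cells, 10.5 against 113. The orphan nuclear receptor NR2F1, the stress-induced SESN1 and C19orf53 also belonged to these rows, at -3.13 to -4.44 in the authors' deposited table. Another curated NR2F1 row went the other way, with 6, 5, 3, 5 and 3 reads in libraries 1 to 5 and 0 on the negative side. Striated muscle genes moved with the negative rows: TPM3 had 8.84 on the positive side against 5098 on the negative side, and the curated rows of the muscle list took 0.0454% of the positive-side and 17.1% of the negative-side level. Its part in the differences of TPM4, IDH2 and the others was not tested.

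**Figure D3:**
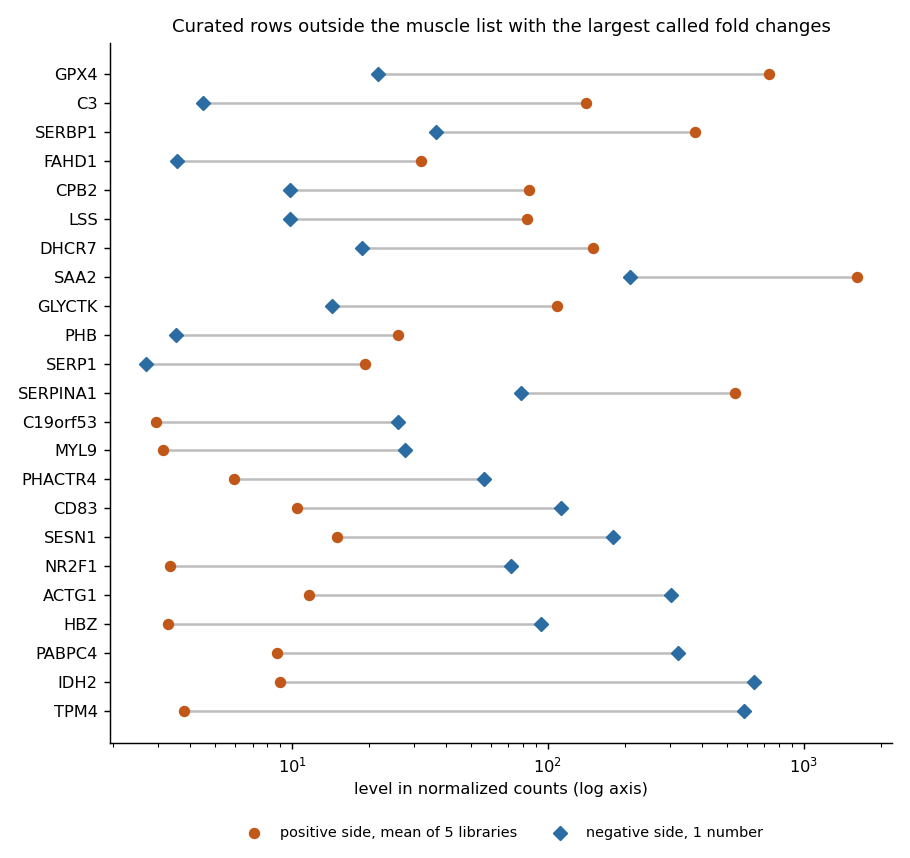
Level in normalized counts (log axis) of curated rows outside the muscle list with the largest called fold changes, a mean of at least 10 and an SE of at most 0.5. Orange circles are the mean of the 5 positive-side libraries and blue diamonds the negative-side number, both from the deposited mean and fold change; GPX4 stands at 734 and 21.6, IDH2 at 8.93 and 640.

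Among predicted rows with an SE of at most 1, the 5 largest positive differences all had reads on both sides. The SE limit largely fixed this beforehand. XM rows with a mean of at least 10 had a median SE of 1.90, and 87.6% of them were at 0 on the negative side. The complement gene C4B_2 had 99.6 on the positive side against 11.7 on the negative side, clotting factor F10 had 21.7 against 4.47 and the lectin ITLN1 146 against 31.4. KIAA1324 had 32.0 against 7.14. ALDH1L2, a mitochondrial folate enzyme, had the largest fold change, 4.24 ± 0.90 in the authors' deposited table, but only 2 reads on the negative side and a ratio of 18.9 with a counting interval from 5.44 to 166. On the negative side were the formin FMNL1 (1.74 against 23.7), the endoplasmic reticulum protein WFS1 (6.34 against 62.0), a septin whose symbol the table holds as a date (3.07 against 18.6) and the splicing factor SF3B1 (13.9 against 44.6). The single noncoding record that met these limits carried the symbol of the helicase DHX9, with 19.7 on the positive side against 6.16 on the negative side.

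Read over 35 gene lists, curated records of hepatocyte functions were called on the positive side far more often than the 19.7% of all curated rows tested. These counts describe the lists beside that background and carry no test of their own, and lists share some genes. The background was not matched for abundance, and abundant rows were called more often. Of the 789 curated rows tested with a mean of at least 10, 323 were positive and 280 negative. Hepatocyte markers had 24 of 25 rows called positive and 0 negative, with a median log2 fold change of 2.63. As a check of the labelled tissue, 18 of 26 marker symbols were present, at 22.2% of the positive-side and 9.0% of the negative-side level. Curated striated muscle rows took 0.0454% and 17.1%, so they outweighed these markers on the negative side. Coagulation had 14 of 15 rows positive, with F2 at 3569 on the positive side against 878 on the negative side. Complement had 5 of 8 and protease inhibitors 11 of 19 positive with 1 negative. Among inhibitors AMBP, the precursor of bikunin, had 1509 on the positive side against 0 on the negative side. Against a floor of 3 reads that is at least 568-fold, a bound that covers counting error only. Curated rows of other roles also stood at 0 there, such as ribosomal RPS9 with 1992 on the positive side and the chaperone HSP90AB1 with 182. Such rows do not give the size of a difference. Apolipoproteins had 6 of 11 rows positive and 0 negative, with APOA4 at 1604 against 332.

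Metabolic lists of the hepatocyte leaned the same way. Amino acid breakdown had 23 of 32 rows called positive and 0 negative with a median of 2.95, led by HPD of tyrosine breakdown (314 on the positive side against 25.3 on the negative side). The glyoxylate aminotransferase AGXT had 21.6 against 0.927 in the row of smallest adjusted p, which rests on 1 negative-side read (ratio 23.4, counting interval 4.30 to 978). The tyrosine aminotransferase TAT had 41.8 against 1.85 on 2 such reads (ratio 22.6, 6.46 to 197). Cholesterol synthesis had 13 of 17 positive and 0 negative with a median of 2.55, and bile acid synthesis and transport 8 of 10 and 0 with a median of 2.69. Fatty acid synthesis had 7 of 13 positive and 0 negative, with the citrate lyase ACLY at 24.7 against 6.16 and the desaturase FADS2 at 28.5 against 7.08. Fatty acid oxidation did not share the lean, with 2 of 19 rows positive and 5 negative. There the dehydrogenase ACADL was called negative in its curated row, at 3.89 against 31.7, while a predicted ACADL row had 28, 21, 20, 12 and 5 reads in libraries 1 to 5 and 0 on the negative side. Glucose metabolism was divided, with 13 positive and 11 negative of 33. Its liver-type enzymes FBP1 of gluconeogenesis (116 against 8.23) and the pyruvate kinase PKLR (47.4 against 5.38) were positive, and the hexokinase HK1 was negative (2.11 against 13.3).

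Lists of protein secretion, ribosomal proteins and protein breakdown were also called positive more often than all curated rows, while translation factors were not. Part of this goes with abundance: 323 of the 789 curated rows tested with a mean of at least 10 were positive, and all 68 curated ribosomal rows had such a mean. Endoplasmic reticulum folding and secretion had 22 of 31 rows positive and 0 negative, with the signal peptidase subunit SEC11A at 77.9 on the positive side against 7.18 on the negative side and the translocon subunit SSR3 at 93.2 against 18.6. Cytosolic ribosomal proteins had 42 of 53 rows with an adjusted p called positive and 1 negative, at a median of 0.90, with RPS2 at 2177 against 663. The levels of all rows summed to 215768 on the positive side against 110982 on the negative side. As shares of those sums, curated ribosomal rows took 23.2% of the positive side and 24.8% of the negative side. Translation factors had 8 of 39 rows positive and 13 negative at a median of -0.32, and 1 and 13 among rows with reads on both sides. Lysosomal genes had 9 of 17 positive and 0 negative. The proteasome had 14 of 28 positive and 3 negative, and the antioxidant list 10 of 24 and 3. Curated proteasome rows took 0.405% of the positive-side level and 0.593% of the negative-side level. These shares were 0.765% and 0.426% for folding and secretion, 0.165% and 0.152% for lysosomal genes and 0.452% and 0.119% for antioxidants. In the antioxidant list the peroxiredoxin PRDX4 had 67.7 against 17.7, and the list median of 0.72 turned to -0.05 with rows at 0 at their bound. For complement and fatty acid synthesis the medians of 2.17 and 2.00 shrank to 0.37 and 0 in the same way.

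**Figure D4:**
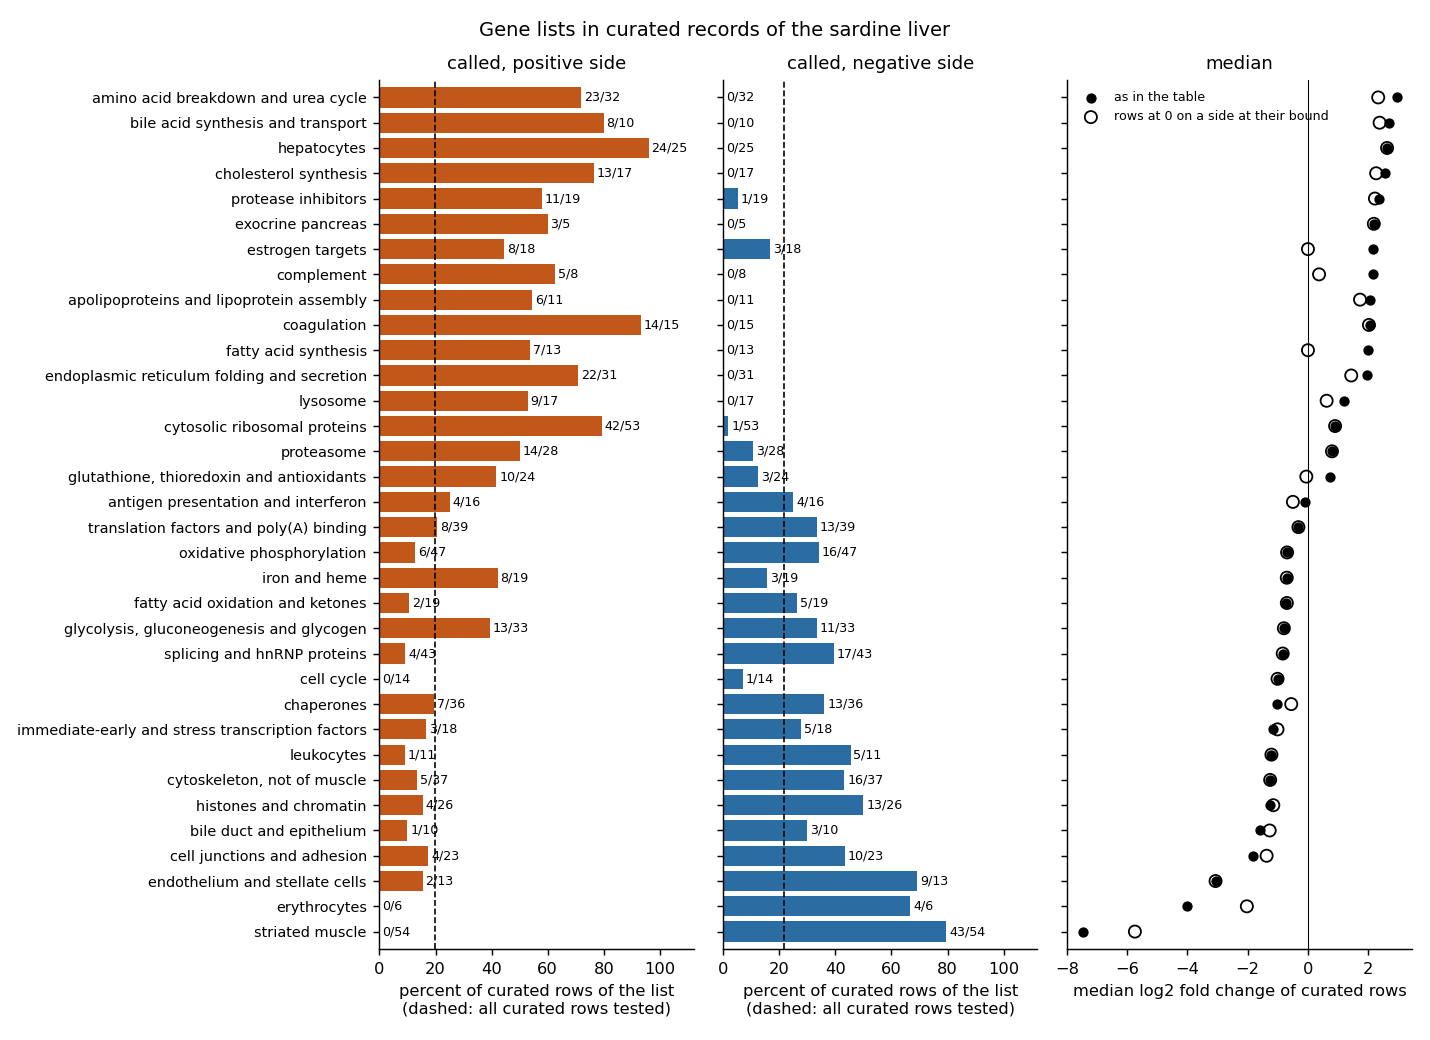
Percent of each list's curated rows called on the positive side (left) and on the negative side (middle), with counts beside the bars and dashed lines at the 19.7% and 21.8% of all curated rows tested; the right panel gives the list's median log2 fold change (filled) and the same with rows at 0 on a side at their bound (open). Lists are ordered by that median as in the table. Most lists of hepatocyte functions stand near the top, with estrogen targets and exocrine pancreas among them, the latter with 3 of 5 rows on the positive side. Striated muscle, erythrocyte and endothelial markers stand at the bottom, and other cell types lie among structural and nuclear lists.

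Most lists of structural and nuclear genes and of other cell types were called on the negative side more often than the 21.8% of all curated rows. Cell cycle, exocrine pancreas and testis were not. That background was not matched for abundance. Of the 789 curated rows tested with a mean of at least 10, 280 were negative, a share like those of chaperones and oxidative phosphorylation. Striated muscle had 43 of 54 rows negative and 0 positive with a median of -7.48. Endothelium and stellate cell markers had 9 of 13 negative and 2 positive. Collagen COL1A1 stood at 2.06 on the positive side against 36.5 on the negative side, and fibronectin FN1 was one of the 2 positive rows at 15.7 against 2.66, from 3 negative-side reads (ratio 5.90, counting interval 2.07 to 31.2). Erythrocyte markers had 4 of 6 negative and leukocyte markers 5 of 11 negative and 1 positive, with the actin-bundling LCP1 at 8.20 against 52.1. Of the erythrocyte rows HBA1 and SPTB rested on 3 negative-side reads each and 0 in all 5 libraries. Globins outside that list had rows called on either side. HBZ stood at 82.6 against 16.9 and 3.28 against 93.7, and HBE1 at 32.8 against 11.5 and 80.2 against 146. Bile duct markers had 3 of 10 negative and 1 positive. The cytoskeleton outside muscle had 16 of 37 negative and 5 positive, and cell junctions 10 of 23 and 4, with the catenin CTNNB1 at 49.0 against 152. Histones and chromatin had 13 of 26 negative and 4 positive, with histone H3F3A at 7.32 against 40.0. Splicing proteins had 17 of 43 and 4, and chaperones 13 of 36 and 7. Oxidative phosphorylation had 16 of 47 and 6, with the ATP synthase subunit ATP5C1 at 33.5 against 117. The exocrine pancreas list had 3 of 5 curated rows positive and 0 negative, with the protease CTRB1 at 55.1 on the positive side against 0 on the negative side. Iron and heme genes had 8 of 19 rows positive and 3 negative. Antigen presentation had 4 of 16 positive and 4 negative, immediate-early factors 3 of 18 and 5, cell cycle 0 of 14 and 1, and testis markers had 1 row, not called. Whether the makeup of the samples by cell type had a part in the hepatocyte lists was not tested.

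Recovered reads showed how these lists varied among the 5 positive-side libraries. In 33 lists with at least 3 solved curated rows, the negative-side level lay below all 5 libraries in 7, above all 5 in 9 and within their range in 17. Without any difference between the sides, a share of 0.333 would lie outside the range, split evenly between below and above. Hepatocyte markers lay within it, at 9.94 to 59.5 in the libraries against 10.6 on the negative side in 4 solved rows. So did complement, protease inhibitors, apolipoproteins and fatty acid synthesis. Amino acid breakdown (17 rows) summed to levels of 86.9, 242, 228, 76.9 and 35.5 in libraries 1 to 5 and 18.6 on the negative side. Bile acid genes (9 rows) summed to 94.2, 132, 140, 48.3 and 27.0, against 13.3. Both lists were highest in libraries 2 and 3 and lowest in library 5, which was still above the negative side. Cholesterol synthesis (7 rows) was highest in libraries 1 and 2 and again lowest in library 5, with 71.3, 62.2, 33.6, 30.0 and 17.0 in libraries 1 to 5 and 7.08 on the negative side.

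The spread between libraries was wide for single genes of these lists. Glutamate dehydrogenase GLUD1 had 24, 34, 28, 6 and 2 reads in libraries 1 to 5 and 0 on the negative side in its better covered solved row. The bile acid hydroxylase CYP8B1 had 18, 22, 15, 14 and 1 reads against 0, and SCP2, a sterol carrier, 30, 22, 22, 4 and 2 against 3. In SCP2 the level of library 5, 2.84, was close to the 2.66 of the negative side, and in CYP8B1 library 5 had 1 read. Glutamine synthetase GLUL had 47 reads in library 2 and 2 to 6 in the others, against 0. The pancreatic amylase AMY2A had 34, 12, 2, 0 and 1 reads against 1, so the positive side of the pancreas list rested mostly on library 1 in this row. None of these 5 rows was called by limma on the recovered reads, where their adjusted p was 0.0665, 0.0801, 0.316, 0.169 and 0.537.

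Muscle reads were not confined to the negative side. The 20 solved rows of the striated muscle list summed to 9.83, 7.89, 10.3, 1.3 and 46.8 in libraries 1 to 5 and 92.1 on the negative side. Solved rows have a mean of at most 10 and leave out the abundant muscle rows. All 54 curated rows of the list summed to 97.9 on the positive side against 19011.5 on the negative side. The predicted row of SYNPO2L, outside the list, went the other way with 23631 on the positive side against 0. Whether its symbol names the sardine transcript was not tested. The calcium buffer PVALB of fast muscle had 14 reads in library 5, 0 in the other 4 libraries and 2 on the negative side. Troponin TNNT2 in its solved row had 3, 0, 4, 0 and 11 reads against 7. Library 5, which had the most muscle reads of the 5 in the solved rows, also had the lowest amino acid, bile acid and cholesterol levels there. Whether these go together was not tested.

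**Figure D5:**
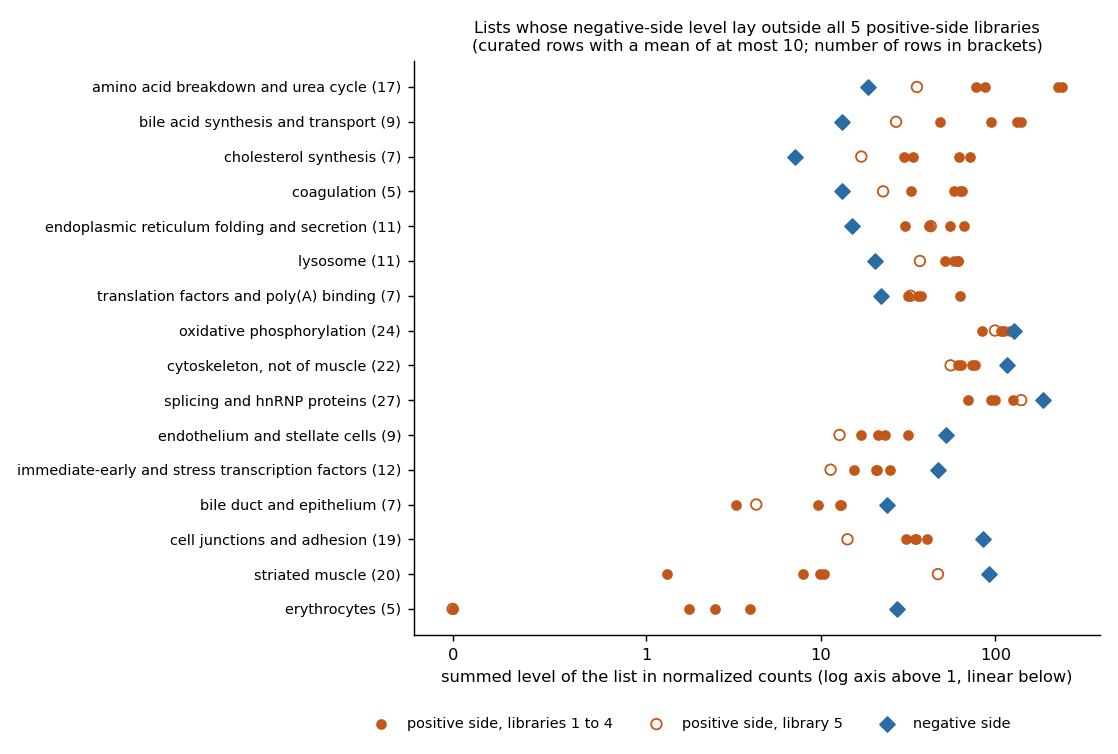
Summed level in normalized counts (log axis above 1) of the 16 gene lists whose negative-side level (blue diamond) lay outside all 5 positive-side libraries, in curated rows with a mean of at most 10. Orange points are libraries 1 to 4 and open circles library 5; amino acid breakdown runs from 35.5 in library 5 to 242, against 18.6 on the negative side.

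A test that takes the negative side as 1 number called fewer rows. Of 1365 curated solved rows with a mean of at least 2, the negative-side level was above all 5 libraries in 667 (48.9%) and below all 5 in 232 (17.0%). Without ties or any difference between the sides, a share of 0.333 would lie outside the 5 libraries, split evenly between above and below. That share assumes that the 6 series are centred alike, which was not so in curated solved rows. Their summed level was 9753 on the negative side against 6379 to 7819 in the libraries. Neither 48.9% nor 17.0% can therefore be read against it. Of the 445 rows that the authors' deposited table called negative there, 437 lay above all 5 libraries, and of the 285 called positive 203 lay below all 5. Those calls rest on the fold change of the same reads, which largely fixed these counts beforehand. limma was run on 2222 solved rows with at least 10 reads and called 222 (9.99%), 176 positive and 46 negative, where the authors' adjusted p called 1550 in the same rows. All rows that limma called had a call in the same direction in the authors' deposited table. Both rest on the same reads, which largely fixed this beforehand. Curated records gave 42 positive (3.02% of 1393) and 43 negative calls (3.09%), and predicted records 134 and 3. Of the 43 negative curated rows 22 had 0 reads in all 5 libraries, which leaves no spread on that side, and 40 of the 42 positive ones had 0 reads on the negative side. Among the lists limma called 0 of 14 curated rows of amino acid breakdown, 0 of 9 of bile acid genes and 0 of 6 of cholesterol synthesis, with 4, 2 and 1 at an unadjusted p under 0.05. It called 0 of 4 hepatocyte and 0 of 4 apolipoprotein rows, with 0 at that unadjusted p in each. limma assumes that the lone negative-side number varies like the 5 libraries. A row that limma did not call is not shown to be equal on the sides, since 1 number against 5 libraries finds only large differences. Leaving out library 1 left 80 calls (52 positive, 28 negative) and leaving out library 3 left 111, while leaving out library 5 raised them to 326 (277 and 49). Curated positive calls were 10 without library 1, 23 without library 2, 12 without library 3 and 92 without library 5. With a prior count of 1 they were 19, and 0 when library 1 was left out as well, where 1 row was called positive over all records.

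The rows of the lists that passed limma show what such differences looked like in reads; they were picked by passing it, after their values were seen. Clotting factor F5 had 19, 23, 19, 12 and 12 reads in libraries 1 to 5 and 1 on the negative side. The disulfide isomerase P4HB had 15, 44, 10, 16 and 9 reads against 0, and its partner ERP44 had 5, 4, 4, 4 and 2 against 0. The respiratory complex III subunit UQCRH had 31, 23, 13, 12 and 7 against 0. The enolase ENO3 had 19, 26, 7, 7 and 8 against 0, and linker histone H1F0 7, 10, 3, 3 and 11 against 0. The protease CTSS, counted among leukocyte and lysosome genes, had 17, 8, 8, 19 and 2 against 0 in one row; its 2 other curated rows were not called in the authors' deposited table. All libraries of the positive side lay above the negative side in these rows.

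On the negative side vimentin VIM, of connective tissue and vessel cells, had 1 read in library 4, 0 in the other libraries and 19 on the negative side. The erythrocyte ankyrin ANK1 had 1, 1, 0, 0 and 0 reads against 20, and the tight junction protein CGN 0, 0, 0, 1 and 0 against 9. The integrin ITGB1 had 0, 0, 0, 0 and 1 reads against 16 in its row of 1 positive-side read. Its better covered curated row went the other way, with a level of 66.0 on the positive side against 11.5 on the negative side. A predicted ITGB1 row stood at 63.5 against 0. The muscle-type phosphofructokinase PFKM had 0 reads in all 5 libraries in both of its rows called by limma, against 12 and 13 on the negative side. LDHB, a lactate dehydrogenase, had 0 against 15, and the plasma protein FETUB 0 against 11 in one curated row, while its other curated row had a level of 29.3 on the positive side against 0 on the negative side. ATP5I, an ATP synthase subunit, had 0 against 12. In the muscle list TNNT3 had 0 against 16, LDB3 0 against 13 and ACTN2 0, 2, 0, 0 and 0 against 8.

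Estrogen-related genes were few and thinly covered. Of 38 symbols of the list 15 were found among curated records, in 18 rows of which 8 were called positive and 3 negative in the authors' deposited table; vitellogenin genes and ESR1 were not analysed here. All curated rows had 19.7% and 21.8%. Among rows of the list with reads on both sides 3 were positive and 3 negative, and its median of 2.17 moved to 0 with rows at 0 at their bound. By limma 0 of its 4 curated rows tested were called, with 1 at an unadjusted p under 0.05. IGFBP1, an insulin-like growth factor binding protein made by the liver, had 21.9 on the positive side against 3.65 on the negative side in its better covered row. In the authors' deposited table IGFBP1 had 2.59 ± 0.68 there (DESeq2 adjusted p 0.00135), from an estimated 4 negative-side reads counted as 5 fish. Its other row had 5, 3, 1, 3 and 6 reads in libraries 1 to 5 and 0 on the negative side, an adjusted p of 0.13 by limma. The drug and steroid hydroxylase CYP3A4 had 36.0 against 9.72, and the steroid-binding SHBG 40.1 against 0. The progesterone receptor membrane component PGRMC1 had 39.0 against 7.12 and was called positive, while its relative PGRMC2 had 33.6 against 107 and was called negative.

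Other steroid enzymes and receptors in the list had few reads. HSD17B8 had 6, 3, 1, 1 and 1 reads in libraries 1 to 5 and 0 on the negative side, and HSD17B2, which inactivates estradiol, 4, 2, 3, 0 and 0 against 0. The glucuronosyltransferase UGT1A1 had 9, 18, 12, 1 and 0 reads against 0 in one predicted row, and 4, 5, 5, 2 and 7 against 0 in another (limma adjusted p 0.314 and 0.0516). The rows of HSD17B8, HSD17B2 and UGT1A1 were called positive in the authors' deposited table. The estrogen receptor ESR2 had 3, 2, 0, 1 and 0 reads against 0. IGF1 had 0, 2, 0, 1 and 2 reads against 0. The egg envelope gene ZP3 had 0, 0, 0, 2 and 0 against 1. ZP4 and the aromatase CYP19A1 had no read in any of the 5 libraries and 1 on the negative side. FOXA1, a liver factor that opens chromatin for steroid receptors, was not called in either row. ESR2, IGF1, ZP3, ZP4 and CYP19A1 were not called in the authors' deposited table either, and a difference in these genes was not detectable at this depth.

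Curated rows of 1 symbol mostly shared a side where several were called, with exceptions. Of 464 symbols with more than 1 curated row, 158 had at least 2 rows called in the authors' deposited table: 58 on the positive side only, 68 on the negative side only and 32 on both. Over all curated rows 881 were called positive and 973 negative. The share of symbols expected on 1 side without any link between their rows was not computed, and such rows can share reads. The globin HBZ had one row at -4.84 ± 0.43 and another at 2.29 ± 0.42 in the authors' deposited table, and HBE1, also a globin, one at 1.51 ± 0.32 and another at -0.86 ± 0.25. The enolase ENO1 had rows at 0.82 and -1.01, the aldehyde dehydrogenase ALDH2 at 1.20 and -1.14, and the chaperone HSPA8 at 0.59, 0.95 and -2.04 in the authors' deposited table. The iron store ferritin FTH1 had rows of 481 and 25.9 on the positive side against 321 and 12.5 on the negative side, and a row of 24.4 against 78.2. For these symbols the human name does not give 1 direction in this table.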

How the data were processed

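Liver RNA of 10 male sardines was sequenced. Per the submitters' processing notes CASAVA 1.8, DESeq2 and the zebrafish build GRCz10 were used; the sources used here give no aligner or annotation. Per the file headers the deposited table holds, for each record, the authors' mean normalized count (a signal over both groups), log2 fold change and its SE, a test score, and p-values raw and adjusted. No adjusted p was given for 116 rows, and the adjustment corresponds to about 12700 tests where 6600 rows hold an adjusted p, so rows beyond those analysed here entered it. Some symbols had become dates.

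Side levels were computed from the mean and fold change, and reads of rows with a mean of at most 10 by solving the mean as a sum of 6 steps; 5721 rows had 1 solution and 17 had 2. Negative-side reads of the 978 rows above that mean are estimates. limma 3.58.1 (R 4.3.3) was run on log2(level + 0.5) with Benjamini-Hochberg adjustment in solved rows of at least 10 reads, a step chosen after seeing the data and tested on simulated data, where it missed most changes of moderate size; it takes the place of a count test, since only 1 negative-side number exists. By permutation 5 values against 1 cannot give a two-sided p below 0.333. Ratio intervals are exact 95% intervals. Python 3.11.15, numpy 2.4.6, pandas 2.3.3 and scipy 1.17.1 were used.

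Members and gene lists were chosen with earlier results of these data known. Named rows are, among curated records outside the muscle list with a mean of at least 10 and an SE of at most 0.5, the 12 called rows of largest fold change per side. Among predicted records with an SE of at most 1 they are the 5 per side, for XM and XR apart. Added to these are the 10 rows of highest mean, all rows of the estrogen list, up to 4 rows per other list with the smallest adjusted p, and the 10 most abundant symbols with both kinds of record. A few rows that meet this rule are not reported here. Rows named outside this rule were chosen after their values were seen. The labels name no tank or batch. The p-values of limma rest only on the spread among the 5 positive-side libraries, and those of the authors count the 1 negative-side number as 5 fish. Neither measures the spread between fish on the negative side. Alternatives were other thresholds, a minimum mean, a maximum SE, 1 row per symbol, re-centring, rows with reads on both sides, and libraries left out.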

Additional observations from a re-analysis of the deposited data

Results flagged for a closer look

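In 3 of 38 summed levels and named values tested, 1 positive-side library lay far from the other 4; with 5 libraries the gap must exceed 0.71 of the range, and chance marks about 1 in 20. In the solved rows of the striated muscle list library 5 stood at 46.8, the others at 1.3 to 10.3 and the negative side at 92.1. The gap was 0.801 of the range. For iron and heme genes it was 0.822, with library 4 at 37.8 and the others at 2.84 to 9.06, against 18.6 on the negative side; the heme enzyme UROD had 21 reads in library 4 and 0 to 2 in the others. For translation factors it was 0.802, with library 4 at 62.6 and the others at 31.6 to 37.7, against 22.1 on the negative side; the release factor ETF1 had 15 reads in library 4 and 2 to 4 in the others.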

How the results depend on the processing

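At an adjusted p under 0.01 the calls were 1004 positive and 509 negative over all records, 469 and 480 in curated and 535 and 29 in predicted records; under 0.1 negative calls were 1970, 1744 and 226. Among rows of mean 10 or more they were 468 and 288, 323 and 280, and 145 and 8. With an SE of at most 1 they were 412 and 578, 399 and 557, and 13 and 21. With reads on both sides positive calls were 419, 405 and 14, and predicted negative calls 44. On the recovered reads the authors' adjusted p called 1215 positive and 335 negative rows, limma with a prior count of 1 called 98 positive, and leaving out each library gave 52 to 277 positive and 28 to 49 negative calls. Libraries 1 and 5 set these ends. List medians over all records turned sign for iron and heme (-0.70), glycolysis (-0.80), translation factors (-0.32), cell junctions (-1.83) and antigen presentation (-0.094) in curated records; among rows of mean 10 or more for bile duct (0.36), translation factors (-0.32) and antigen presentation (-0.35); and for cell junctions with rows at their bound (-0.22). The cause was not tested. Of the named rows' values under the alternatives 1537 kept their side and call, 10 gained a call, 20 lost it and 0 turned sign. Much of this was fixed in advance: settings that only drop rows leave the call of a kept row unchanged, and only re-centring could turn a sign. At an adjusted p under 0.01 14 named rows lost their call, and with an absolute fold change of at least 1 6 lost it. Under 0.1 10 gained one. No paired analysis was possible because the table carries no replicate numbers. Depth limits rows with a mean of at most 1, where the median SE was 2.08.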
